A study of Oryza sativa Japonica Group and Oryza sativa Indica Group with 10 samples.

Results

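CAB2R and PSAH are nuclear genes of the light reactions of photosynthesis, and their transcripts were examined in young rice panicles of 2 cultivars. Every probe set that the platform annotation pairs with exactly 1 gene was searched for both names among the gene symbols and synonyms. This gave 3 of the 57258 rice probe sets, of which 2 belong to CAB2R and 1 to PSAH, or 2 of the 17905 genes paired with a probe set. The genes had been chosen by their signals on these same arrays, which differed between the cultivars. This difference is therefore described here without a test, while the spread between replicates and the co-variation of arrays within a cultivar did not enter the choice. The arrays hold 5 biological replicates of Nipponbare, a japonica cultivar, and 5 of 93-11, an indica cultivar, all from panicles 2 cm long, with no treatment named for either. Labeled cRNA was hybridized to the Affymetrix rice array, which was designed largely for japonica transcripts. A lower signal in 93-11 can come from a mismatched probe as well as from a lower transcript level, and the signal of a probe set cannot tell these apart. In a whole panicle, fewer cells of a type and less RNA per cell cannot be told apart either.

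CAB2R encodes a chlorophyll a/b-binding protein of the light-harvesting antenna, the pigment-protein complexes that collect light and pass its energy to the reaction centres. PSAH encodes subunit H of photosystem I, a small protein on the side of the complex where the mobile antenna of photosystem II docks in plants. Genes of both kinds are made in the nucleus, respond to light, the circadian clock and the state of the plastid, and are known for high transcript levels in green leaves. The young panicle is enclosed by leaf sheaths and is mostly made of dividing and newly formed floral tissue.

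The arrays differed in overall brightness. With 2% of the probe sets trimmed at either end, the array means ranged from 205 to 377 in Nipponbare and from 196 to 235 in 93-11 (two-sided exact permutation test over all divisions of the arrays, p = 0.0317, smallest possible p 0.00794). Signals are therefore given as deposited and after scaling of each array to a common trimmed mean. Over all probe sets, the median of the log2 differences, 93-11 minus Nipponbare, was -0.16 as deposited and 0.03 after scaling. The study called a probe set highly expressed when the median log10 raw intensity of its probes passed 2.5 in both cultivars. That is another measure, so the probe sets counted here are not the study's own class. Here a threshold of log10 2.5 is applied to the mean log10 scaled signal of a cultivar. Of 25 probe sets of young inflorescence genes, mainly MADS-box genes of floral organ identity, 20 lay above it in Nipponbare and 22 in 93-11. None of 9 probe sets of root genes and none of 7 of anther and pollen genes did so in either cultivar, and 2 of 23 of endosperm genes did in each.

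In Nipponbare panicles, CAB2R gave a strong signal on every array. Its first probe set carries the suffix a_at, which marks probes common to transcript variants of 1 gene. As deposited, it had signals of 8452, 12521, 7723, 8521 and 7525 on Nipponbare arrays 1 to 5. On 93-11 arrays 1 to 5 it had 330, 168, 645, 185 and 1539. No 93-11 array reached the range of Nipponbare, and array 5 stood highest in 93-11. After scaling, the mean of Nipponbare was 7949 ± 741 and that of 93-11 was 657 ± 674 (both SD, n = 5), a ratio of 12.1. The ratio was 15.6 as deposited. The mean of 93-11 rested in large part on array 5, without which it was 368 ± 221 (SD, n = 4) and the ratio 21.6.

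The other CAB2R probe set carries the suffix s_at, which marks probes that can match transcripts of more than 1 gene, as is common among the similar genes of this family. As deposited, it had signals of 4147, 5854, 3326, 3816 and 3604 in Nipponbare. In 93-11 it had 117, 52.0, 177, 69.2 and 478. The arrays fell in nearly the same order as for the first probe set, and the cultivars again did not overlap. After scaling, the means were 3689 ± 470 and 205 ± 205 (both SD, n = 5), a ratio of 18.0, or 31.9 without 93-11 array 5. Within each array, the first probe set was 2.04 to 2.32 times as bright as the other in Nipponbare and 2.67 to 3.64 times in 93-11. The signals of both probe sets of this gene were thus unequally lower in 93-11.

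PSAH, subunit H of photosystem I, had signals of 461, 526, 413, 428 and 515 as deposited on the Nipponbare arrays. On the 93-11 arrays it had 43.0, 4.56, 74.4, 41.2 and 100, all below every Nipponbare array. After scaling, the means were 430 ± 108 and 59.9 ± 41.8 (both SD, n = 5), a ratio of 7.18, which was 8.90 as deposited. Array 5 was again the highest in 93-11, and array 2, the lowest, fell under the median signal of all probe sets, which was 19.8 to 21.9 on the 93-11 arrays. The probe set lay above log10 2.5 on all 5 Nipponbare arrays and on 0 of the 93-11 arrays. The first CAB2R probe set was above this threshold on 3 of the 93-11 arrays and the other on 1.

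**Figure D1:**
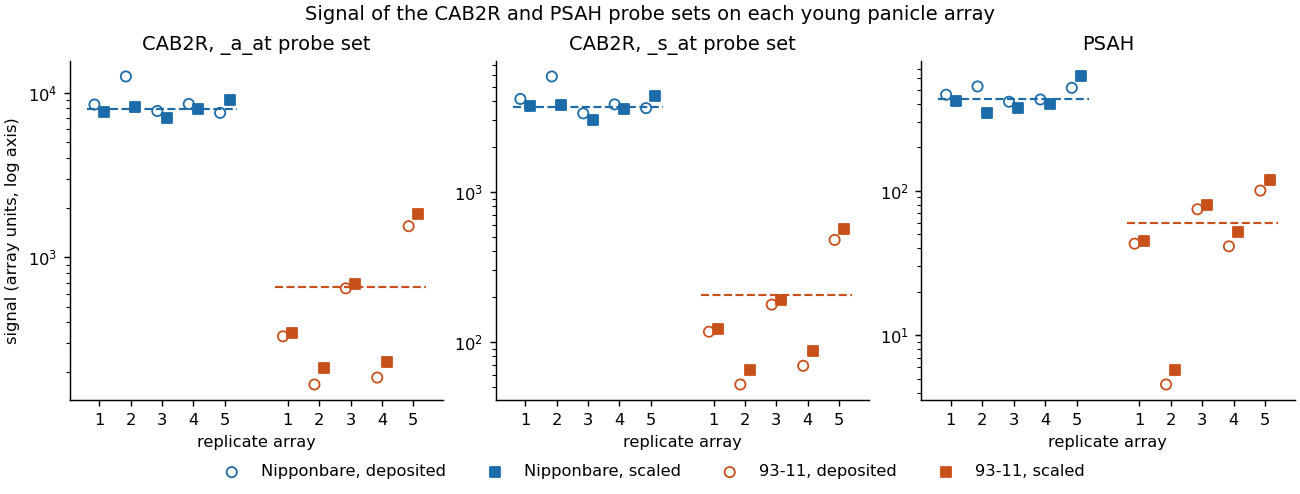
Signal of each probe set on each array, on a logarithmic axis in array units, with 1 panel per probe set and a separate range in each panel. Open circles are deposited values, filled squares are scaled values and dashed lines are the means of the 5 scaled values, and all 3 probe sets have every Nipponbare array above every 93-11 array.

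On the log2 scale, with 16 added to each scaled signal, the differences were -4.04 (standard error 0.45) and -4.45 (0.40) for CAB2R and -2.75 (0.38) for PSAH. As deposited they were -4.39, -4.78 and -3.03. The added constant shrinks the difference of the weakest values, and without it that of PSAH was -3.34 after scaling. All 3 probe sets had no overlap between the cultivars, a pattern shown in the same direction by 8.02% of all rice probe sets after scaling and by 10.4% as deposited (6.55% and 1.47% in the opposite direction). Since the genes were chosen for this difference, the count says nothing more about them.

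The replicates of CAB2R and PSAH had a wider range in 93-11 than in Nipponbare. After scaling, the SD of log2(signal) of the first CAB2R probe set was 0.134 in Nipponbare and 1.29 in 93-11. In 93-11 this exceeded the SD of 99.8% of the 6732 probe sets whose mean log10 signal lay from 2.5 to 3.0 and whose median SD was 0.198. In Nipponbare it lay near the median SD of 0.130 of the 1223 probe sets above 3.5. The other CAB2R probe set had SDs of 0.188 and 1.22. In 93-11 it exceeded 98.8% of the 5919 probe sets from 2.0 to 2.5, and in Nipponbare 84.1% of the 1223 above 3.5. The SD of the first CAB2R probe set in 93-11 was 0.778 without array 5, above 99.5% of the probe sets of its level, and that of the other was 0.662, above 97.9%.

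For PSAH the SD of log2(signal) was 0.327 in Nipponbare and 1.69 in 93-11, the latter above 99.5% of the 6733 probe sets from 1.5 to 2.0. Much of it came from array 2, at a scaled signal of 5.71, without which it was 0.635, above 84.5% of the 6736 probe sets of that level. With 64 added to each signal it was 0.515. In Nipponbare, the SD of PSAH exceeded that of 90.2% of the 7173 probe sets from 2.5 to 3.0 after scaling. As deposited it exceeded only 0.847% of 7199, so its place among them depended on the scaling. From the lowest to the highest array, the scaled signal changed 8.63-fold and 8.64-fold for the probe sets of CAB2R in 93-11 and 20.7-fold for PSAH, against 1.29-fold, 1.43-fold and 1.80-fold in Nipponbare. Without 93-11 array 5 these ranges were 3.27-fold, or 210 to 688, and 65.1 to 189 for CAB2R, and without array 2 that of PSAH was 2.64-fold. The direction of this contrast in spread was the same as deposited, with SDs of 0.296, 0.316 and 0.157 in Nipponbare and 1.34, 1.26 and 1.75 in 93-11. The difference in spread between cultivars was not tested.

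**Figure D2:**
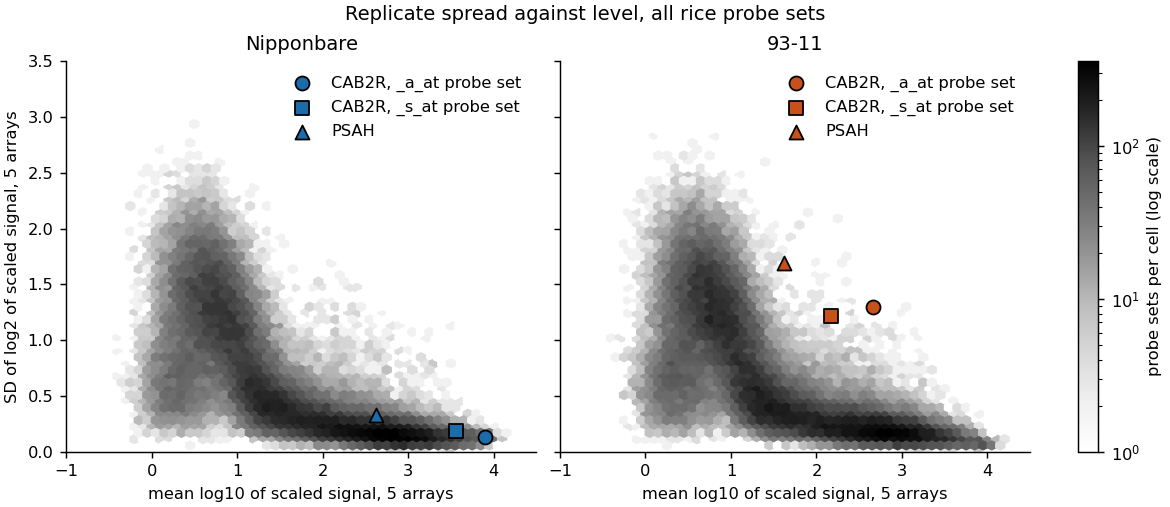
SD of log2 of the scaled signal over the 5 arrays of a cultivar (vertical) against the mean log10 of the scaled signal (horizontal), with all rice probe sets as grey cells shaded by their number. The CAB2R and PSAH probe sets, drawn as coloured symbols, lie at SDs of 0.134 to 0.327 in Nipponbare. In 93-11 they lie above the main cloud, at SDs of 1.22 to 1.69.

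To ask whether both genes moved together from panicle to panicle, the deviations of the arrays from their cultivar mean were compared, which leaves out the difference between cultivars. Array 5 was the highest of its cultivar for all 3 probe sets in both cultivars after scaling. As deposited this held in 93-11 but not in Nipponbare, where array 5, the dimmest of its cultivar, was the lowest for the first CAB2R probe set, next to the lowest for the other and next to the highest for PSAH. In 93-11, array 3 followed it for all 3 and array 2 was the lowest. Both CAB2R probe sets rose and fell together (Pearson r = 0.99, exact permutation of arrays within cultivars, two-sided p = 2.08e-04, adjusted p = 6.25e-04 over 3 pairs; Spearman rho = 0.99, p = 5.56e-04, adjusted p = 0.00167; n = 10 arrays). CAB2R and PSAH deviated in the same direction, with r = 0.79 for the first CAB2R probe set (exact permutation p = 0.0758, adjusted p = 0.0758; rho = 0.67, p = 0.0852, adjusted p = 0.0852; n = 10 arrays) and r = 0.82 for the other (exact permutation p = 0.0616, adjusted p = 0.0758; rho = 0.68, p = 0.0778, adjusted p = 0.0852; n = 10 arrays), and neither passed 0.05. Without 93-11 arrays 2 and 5, the farthest from the median, r was 0.62 and 0.67, and 0.96 for both CAB2R probe sets. As deposited the relation of CAB2R and PSAH passed, at r = 0.82 and 0.84 (exact permutation, both adjusted p = 0.0462). Deposited values also carry the brightness of each array, which all its probe sets share, so that pass is not particular to these genes. After scaling without 93-11 array 2 the relation passed as well, at r = 0.82 and 0.83 (exact permutation, both adjusted p = 0.0184). All these r rest mainly on the 5 arrays of 93-11, where deviations were larger. The SD of log2(scaled signal) there was 1.29 for the first CAB2R probe set and 1.69 for PSAH, against 0.134 and 0.327 in Nipponbare. In Nipponbare after scaling, array 2 was second for the first CAB2R probe set and the lowest for PSAH. The 5 arrays of a cultivar are too few for a correlation within it.

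**Figure D3:**
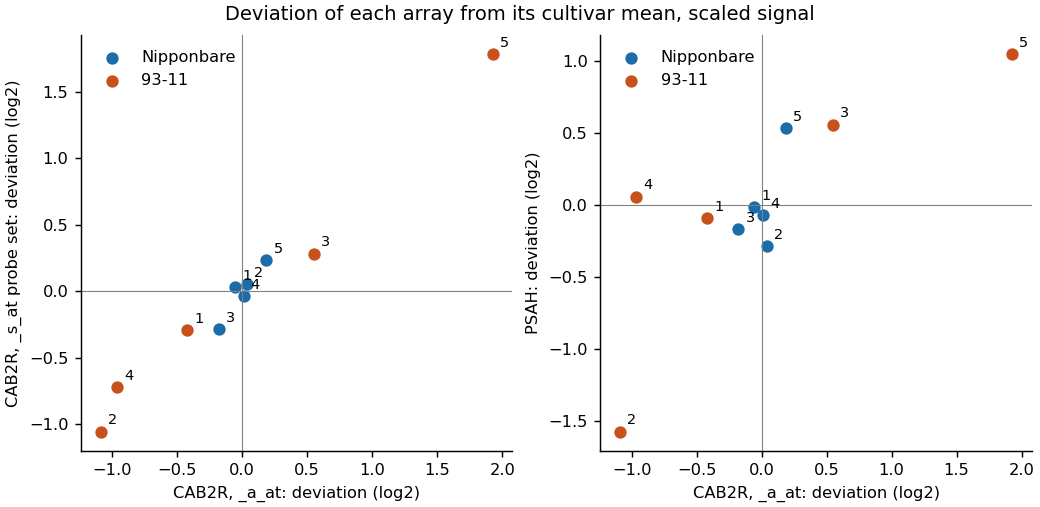
Deviation of each array from its cultivar mean, in log2 of the scaled signal with 16 added, for the first CAB2R probe set (horizontal) against the other CAB2R probe set (left) and PSAH (right). Each point is 1 array labelled with its replicate number, and the 93-11 arrays, in orange, span a wider range than the Nipponbare arrays, in blue, with 93-11 array 5 at the upper right and array 2 at the lower left.

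Some RNA measures also stood apart on the arrays numbered 5. The 3'/5' signal ratio of the actin control, which rises when RNA is shortened or copied incompletely, was 4.54 on Nipponbare array 5 and 2.74 to 2.99 on the others of that cultivar. In 93-11 it was 4.84 on array 5 and 2.97 to 3.77 on the others. That of GAPDH was highest on array 5 in Nipponbare, at 5.72, and on array 1 in 93-11, at 6.31, followed by array 5 at 6.15. Those of cyclophilin (3.08 and 3.12) and ubiquitin (0.678 and 0.689) on the arrays numbered 5 lay inside the range of the others. Array 3 of 93-11, second for CAB2R, had an actin ratio of 2.97. Without both arrays numbered 5 the log2 differences were -4.48, -4.84 and -2.88, and r between CAB2R and PSAH was 0.72 and 0.81 (exact permutation, n = 8 arrays, adjusted p = 0.316 and 0.258). The part of RNA quality in these values was not tested further.

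Among 10546 probe sets paired with 1 gene and above log10 2.5 in at least 1 cultivar, those that followed the genes most closely within cultivars were sought by Pearson r of scaled deviations over the 10 arrays. These correlations share the arrays and are given as a description. For the first CAB2R probe set, the closest with a gene name were BIPP2C1, a protein phosphatase of the 2C type (r = 0.95), OsCXXS1, a thioredoxin-like protein (0.94), and CIGR1, a GRAS-family regulator (0.92). As deposited the same pairs had r of 0.91, 0.74 and 0.77. For PSAH they were ADIPOR2 (0.96), RCABP89, another chlorophyll a/b-binding protein of the antenna (0.91), and COPT5.1, of the copper transporter family (0.90). These were 0.65, 0.77 and 0.86 as deposited. The deviations of PSAH rest in large part on 93-11 array 2, at a scaled signal of 5.71, and these r are not given without it.

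The other genes of the light reactions and of carbon fixation were examined as 5 lists by symbol. With limma on log2(scaled signal + 16) and Benjamini-Hochberg adjustment over 57258 probe sets, 15 of their 30 probe sets, of 8 of 17 genes, fell in 93-11 and 2 rose. CAB2R and PSAH are not counted. The lists were chosen with earlier results of these data known, so the counts and p-values are a description. Over all rice probe sets, 9.21% were called lower and 7.84% higher, and as deposited 11.9% and 1.66%. Among the 13407 above log10 2.5 in at least 1 cultivar, 15% were called lower and 19.5% higher after scaling. The median log2 difference of the 30 was -0.33, against 0.03 over all probe sets. As deposited, 15 fell and 0 rose by limma (1 was higher at an unadjusted p under 0.05), and the median was -0.59 against -0.16. Several probe sets of 1 gene share its transcript, so the genes are described 1 by 1.

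**Figure D4:**
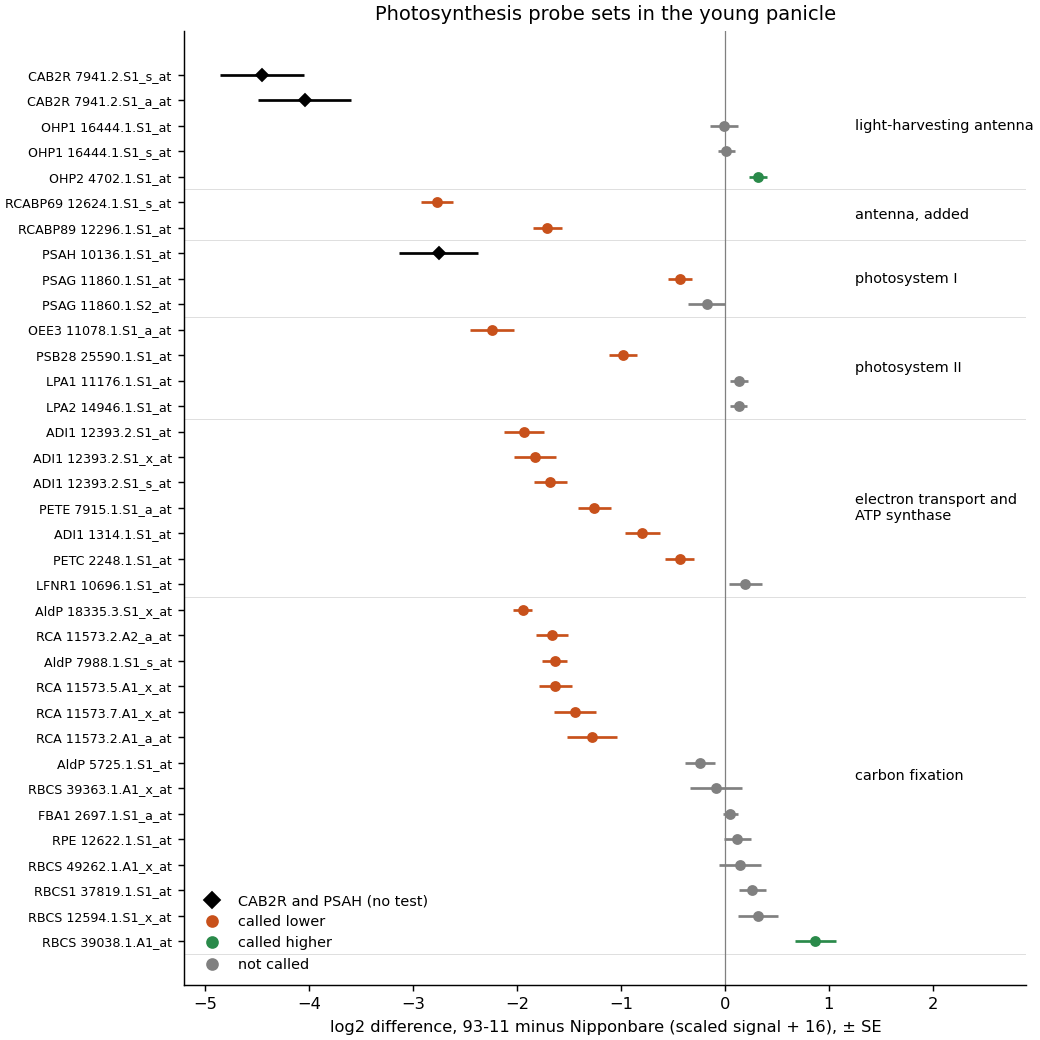
Log2 difference between cultivars, 93-11 minus Nipponbare, of scaled signal with 16 added, with its standard error, for each photosynthesis probe set (labelled by gene and probe set) in 6 blocks by role. Black diamonds are CAB2R and PSAH, orange points were called lower, green points higher and grey points neither, and the CAB2R probe sets lie farthest to the left at -4.45 and -4.04.

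The antenna genes differed among themselves. OHP1 and OHP2, small relatives of the antenna proteins that protect the photosystems during their assembly, were not called lower. OHP2 had mean scaled signals of 4113 ± 353 and 5140 ± 523 (both SD, n = 5), a rise in 93-11 of 0.32 on the log2 scale (limma, adjusted p = 0.0224). This rise was absent as deposited (-0.04, adjusted p = 0.928) and was lost when any of 4 arrays was left out. Both probe sets of OHP1 had differences near 0, at -0.01 and 0.01. A pair of chlorophyll a/b-binding protein genes outside the list, RCABP69 and RCABP89, was looked up after the values of CAB2R had been seen, because they belong to the same family. The probe set of RCABP69 carries the suffix s_at, so its probes can match transcripts of more than 1 gene. RCABP69 had scaled signals of 961, 918, 972, 1008 and 1158 in Nipponbare and 113, 88.1, 187, 149 and 148 in 93-11. RCABP89 had 2378, 2441, 2388, 2627 and 2709 in Nipponbare and 762, 536, 967, 674 and 925 in 93-11. Neither overlapped between cultivars, a pattern shown in this direction by 8.02% of all rice probe sets after scaling. The log2 differences were -2.77 (standard error 0.16, limma adjusted p = 1.70e-08) and -1.71 (standard error 0.14, limma adjusted p = 6.74e-07). As the pair was picked after CAB2R had been seen, these p-values are given as a description. In 93-11 array 2 was the lowest for both, as for CAB2R, while array 3 was the highest.

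Photosystem I was otherwise represented by PSAG, the subunit at the rim of the complex facing its antenna. The brighter of its probe sets fell from 437 ± 64.9 (SD, n = 5) to 318 ± 33.2 (SD, n = 5) after scaling, by 0.43 on the log2 scale (standard error 0.12, limma adjusted p = 0.0198), a call lost when any of 4 arrays was left out and after median scaling (-0.33, limma adjusted p = 0.0817). The weaker, at 34.9 ± 2.00 and 29.8 ± 8.38, was not called. In photosystem II, OEE3, an extrinsic protein of the oxygen-evolving complex, fell from 1228 ± 272 to 255 ± 103 (log2 difference -2.24, limma adjusted p = 3.49e-06). Its array 5 was the highest in both cultivars after scaling, at 1660 in Nipponbare and 433 in 93-11, as for CAB2R and PSAH. As deposited, array 2 was the highest in Nipponbare, at 1749 against 1386 on array 5. PSB28, an assembly protein of photosystem II, fell from 371 ± 54.1 to 181 ± 33.6 (-0.98, limma adjusted p = 1.58e-04). LPA1 and LPA2, known from Arabidopsis as further assembly factors, had differences of 0.13 each and were not called.

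In the electron transport chain, ADI1, a ferredoxin that receives electrons from photosystem I, fell in all 4 of its probe sets, with log2 differences from -1.93 to -0.79, the smallest being that of a weak probe set with mean signals of 26.0 and 8.20. The probe set of largest fall had 714 ± 180 in Nipponbare and 176 ± 47.7 in 93-11 (both SD, n = 5; limma adjusted p = 6.24e-06). PETE, plastocyanin, which brings electrons to photosystem I, fell from 2758 ± 388 to 1169 ± 306 (-1.26, limma adjusted p = 6.67e-05). PETC, the Rieske protein of the cytochrome complex, had 607 ± 77.3 and 450 ± 98.2 and a difference of -0.43 (limma adjusted p = 0.0482), a call lost without any of 8 arrays. LFNR1, a leaf ferredoxin-NADP reductase, was not called at 0.20. Within cultivars, PETC, PETE and 1 probe set of ADI1 followed PSAH with r of 0.83, 0.86 and 0.86. These were 3 of the 16 list probe sets above log10 2.5, and 0.967% of the 10544 such probe sets exceeded an r of 0.8 with PSAH. With the first CAB2R probe set, 1 of 16, PETC at 0.82, exceeded 0.8, against 1.78% of all. The r with PSAH rest in large part on 93-11 array 2, where its scaled signal was 5.71, and are not given without it.

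Genes of carbon fixation fell in part. RCA, the activase of RuBisCO, fell in all 4 probe sets, in that of largest fall from 191 ± 30.2 (SD, n = 5) to 49.6 ± 10.7 (SD, n = 5) after scaling (-1.66, limma adjusted p = 3.26e-06). AldP, a plastid aldolase, fell in 2 of 3 probe sets, in the first from 561 ± 27.4 to 134 ± 13.9 (-1.95, limma adjusted p = 3.16e-09). RBCS, the small subunit of RuBisCO and a main transcript of green leaves, was called lower in 0 of its 4 probe sets and rose in 1, from 47.8 ± 12.3 to 101 ± 25.9 (0.87, limma adjusted p = 0.00679), a rise not called as deposited (0.58, adjusted p = 0.0872). The brightest RBCS probe set had 173 ± 52.8 and 217 ± 44.7, below log10 2.5 in both cultivars, as was RBCS1. The weakest had 5.69 ± 4.55 and 8.32 ± 6.84, and another 28.4 ± 8.66 and 27.7 ± 18.2. Signals this weak leave little room for a fall to be called. FBA1, whose place in carbon fixation was not checked, RPE and RBCS1 were not called.

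The carbon fixation and photorespiration lists, drawn up to describe green tissue, were also summed. Whether each of their genes is particular to green tissue was not checked. The summed scaled signal of the 14 carbon fixation probe sets was 7449 to 8718 in Nipponbare and 6838 to 7563 in 93-11, and that of the 15 photorespiration probe sets 7613 to 8249 and 7770 to 9169. Most of the former came from FBA1, an aldolase whose place in carbon fixation was not checked. Without it the sum was 1842 to 2371 in Nipponbare and 973 to 1307 in 93-11. Of the photorespiration sum, CATB, a catalase, gave 4547 to 4807 and 4580 to 5760, and the other 10 probe sets 2980 to 3463 and 2684 to 3719. In the carbon fixation list, 3 probe sets lay above log10 2.5 in Nipponbare and 1 in 93-11. Over all probe sets 9.21% were called lower, or 15% of those above log10 2.5. In photorespiration, 7 lay above log10 2.5 in each cultivar. Near these shares, 2 of the 15 fell in 93-11. Those were 1 of the 2 probe sets of GLO1, a glycolate oxidase, from 52.0 ± 21.2 to 12.8 ± 11.3 (-1.27, limma adjusted p = 0.00629), and 1 of the 3 of GLO5, another, from 141 ± 17.1 to 99.5 ± 16.8 (-0.45, limma adjusted p = 0.0471), which was lost without any of 8 arrays, with the replicate number as a block (limma adjusted p = 0.0671), after quantile normalization (0.31) or median scaling (0.136). The brighter probe set of GLO1 had 863 ± 95.8 and 988 ± 213 and was not called. The part of green tissue in the signals of CAB2R and PSAH was not tested.

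GLK1 and GLK2, transcription factors known in plants for activating antenna and photosystem genes, were lower in 93-11. GLK1 fell from 383 ± 47.8 (SD, n = 5) to 113 ± 19.4 (SD, n = 5) after scaling (-1.63, limma adjusted p = 5.89e-07). GLK2 fell in 2 of 4 probe sets, in the brightest from 1103 ± 148 to 511 ± 138 (-1.12, limma adjusted p = 2.34e-04), and the others, at 35.7 to 43.4, were not called. Within cultivars, GLK1 and the brightest GLK2 probe set had r of -0.50 and -0.54 with the first CAB2R probe set. PHYC, a phytochrome, rose by 0.34 (limma adjusted p = 0.0468), which was lost without any of 7 arrays and was -0.01 as deposited. Of the 10 probe sets of this list of regulators, 3 fell and 1 rose, with the same 9.21% and 7.84% over all probe sets, or 15% and 19.5% of those above log10 2.5.

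The CAB2R protein binds chlorophyll. Of 11 probe sets of chlorophyll synthesis genes, the signals of 6 fell and that of 1 rose. Of 5 probe sets of breakdown genes, 0 fell and 1 rose (limma, against 9.21% lower and 7.84% higher over all). CHLH, a subunit of magnesium chelatase, fell in 1 of 2 probe sets from 474 ± 59.2 to 119 ± 8.98 (-1.85, limma adjusted p = 2.15e-08), while the other differed by 0.05 and was not called. PORB, a protochlorophyllide reductase, fell from 820 ± 43.3 to 295 ± 67.5 (-1.45, limma adjusted p = 2.17e-06). Those that rose were CHLG, chlorophyll synthase (0.31, limma adjusted p = 0.0170), and NYC1, a chlorophyll b reductase of breakdown (0.57, limma adjusted p = 0.0119), neither of which was called as deposited (-0.04 and 0.23).

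Clock genes, which time antenna gene transcription in plants over the day, differed as well. After scaling, CCA1 fell from 6338 ± 574 (SD, n = 5) to 3744 ± 679 (SD, n = 5) (-0.77, limma adjusted p = 4.31e-04) and PRR37 fell in 1 of 2 probe sets by 1.13 (limma adjusted p = 1.05e-04). GI rose from 624 ± 51.4 to 1780 ± 366 (1.47, limma adjusted p = 1.39e-06) and PRR1 from 188 ± 48.8 to 413 ± 19.1 (limma adjusted p = 8.37e-05). The time of day of harvest is not given in the sources used here, so that any difference of harvest time cannot be told apart from cultivar. Of the 10 clock probe sets, 3 fell and 2 rose, where 9.21% and 7.84% of all probe sets did, or 15% and 19.5% of those above log10 2.5.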

How the data were processed

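Labeled cRNA from young panicles 2 cm long was hybridized to 1-colour arrays, 5 of Nipponbare and 5 of 93-11. The authors deposited 1 signal intensity per probe set and array on a linear scale. The submitters' processing notes name GCOS 1.3, and the summarisation of probes is not given in the sources used here. No column was left unmapped. Of 57381 probe sets, 123 Affymetrix controls were left out. The number of arrays limits the precision, and nothing beyond the labels' word biological says how replicates were grown.

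Each array was scaled to a common mean (2% trimmed at each end), and limma 3.58.1 (R 4.3.3) was run on log2(signal + 16) (eBayes with intensity trend, no block, two-sided, Benjamini-Hochberg, threshold 0.05), checked on simulated data. Correlations of deviations from cultivar means were tested by 14400 exact permutations within cultivars in Python 3.11.15 with scipy 1.17.1. Alternatives were deposited values, quantile and median scaling, constants of 1 and 64, a filter at log10 2.0, no trend, the methods' ANOVA, a replicate block and leaving out arrays.

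Genes were named through GEO's probe annotation, with symbols from RefSeq (assembly ASM3414082v1, names only), and 22436 probe sets have 1 gene. List names that fit several genes were dropped. Named are all probe sets of CAB2R and PSAH, in each list the 2 with the largest called rise and fall (or the 2 of highest signal), and the 3 most alike. PETC, OHP1, LPA1, LPA2, LFNR1, RCABP69 and the probe sets beside the named ones were added after their values were seen. The members and lists were chosen with earlier results of these data known. Sequences were not used here.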

Additional observations from a re-analysis of the deposited data

Results flagged for a closer look

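A single array stood far from the other 4 of its cultivar in 6 of 38 groups of 5 arrays examined. Chance gives about 1 in 20 for independent groups. These groups share arrays and related transcripts, so that rate is no yardstick for the count. In all 6 groups it was an array numbered 5, and signals are given after scaling, which raised array 5 more than the others of Nipponbare. The scaled signal of the s_at probe set of CAB2R was 563 on 93-11 array 5, against 65.1 to 189 on the others. PSAH had 617 on Nipponbare array 5, against 342 to 416, but as deposited it had 515, within the 413 to 526 of the others. OEE3, of the oxygen-evolving complex, had 433 on 93-11 array 5, against 172 to 239. PETE, plastocyanin, had 3430 on Nipponbare array 5, against 2429 to 2675, but as deposited 2863, within the 2595 to 4115 of the others. The 3'/5' signal ratio of actin was 4.54 on Nipponbare array 5, against 2.74 to 2.99, and 2.07 in a second actin design, against 1.55 to 1.68.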

How the results depend on the processing

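The 3 probe sets of CAB2R and PSAH were lower in 93-11 under all alternatives run. With 1 array left out, their log2 differences ranged from -4.52 to -3.77, from -4.90 to -4.19 and from -3.02 to -2.36. Only the s_at probe set of CAB2R moved by more than its replicate SD, to -5.25 as deposited without both arrays numbered 5, an alternative added after seeing the data. Over all rice probe sets, 5274 were called lower and 4490 higher. The number higher became 951 as deposited. As deposited without both arrays numbered 5, 848 were called higher and 8720 lower. With only probe sets above log10 2.0 kept, which tests fewer, 2686 were called lower and 3968 higher. Why the lower calls dropped more than the higher ones was not tested. Of the photosynthesis lists, 15 fell, and 11 to 17 under the alternatives, some with fewer or more probe sets (13 to 16 with 1 array left out). The number that rose was 2, and it was 0 as deposited, with or without arrays 5, and 1 with the filter or without trend (1 to 2 with 1 array left out). The cause was not tested. The relation of CAB2R and PSAH within cultivars passed 0.05 as deposited (r = 0.82 and 0.84), where the brightness shared by all probe sets of an array is kept. It also passed with a constant of 64 (r = 0.80 and 0.81, exact permutation, adjusted p = 0.0250). With 1 array left out, r ranged from 0.72 to 0.89 and from 0.82 to 0.89. Over these alternatives adjusted p ran from 0.0184 to 0.316. The SD of log2(signal) in Nipponbare was 0.296, 0.316 and 0.157 as deposited, and that of PSAH in 93-11 was 0.515 with 64 added. The differences of OHP2, CHLG and PHYC turned to -0.0365, -0.0399 and -0.0138 as deposited, and to -0.131, -0.145 and -0.0618 without arrays 5 as well. That of LSI1, a root silicon transporter that was not called (adjusted p = 0.995), was 0.190 after quantile and 0.0790 after median scaling, 0.00291 with 64 added, 0.0875 without both arrays 5 and -0.13 to 0.11 with 1 array left out (0.00586, 0.03, 0.06, 0.11 and 0.03 where it was positive).

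Replicate numbers are shared between cultivars, but arrays of the same number did not all deviate together (r of -0.13 to 0.50 over 13407 probe sets), so they were not taken as pairs. With the replicate number as a block, 5484 were called lower and 5205 higher, and 15 and 2 in the photosynthesis lists. Of the single genes named, the block ended only the call of GLO5. Under other settings, calls were also lost for OHP2 (no trend), PSAG (median scaling), GLO5 and TDR (quantile, median scaling, ANOVA), PHYC (quantile, no trend, ANOVA), OsMADS13 (quantile), RBCS, NYC1 and GLUA2 (as deposited, with or without arrays 5) and RFL (as deposited without arrays 5). In 2 of 5 numbers the Nipponbare array correlated best with its own number.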

Other observations

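The remaining lists were measured to describe the tissue. Of 25 probe sets of young inflorescence genes, 3 fell in 93-11 and 5 rose after scaling, while 5 fell and 2 rose as deposited. Over all probe sets, 9.21% fell and 7.84% rose after scaling, or 15% and 19.5% of those above log10 2.5. OsSPL14, of panicle branching, rose from 555 ± 122 (SD, n = 5) to 1955 ± 528 (SD, n = 5) and RFL, the rice LEAFY gene, from 607 ± 93.7 to 1264 ± 233. OSH1, a meristem gene, fell in 1 of 2 probe sets from 4650 ± 328 to 1877 ± 165, and OsMADS13, of ovule identity, from 71.5 ± 5.89 to 41.0 ± 10.6. Of 23 endosperm probe sets, 1 of the 2 of GLUA2, a glutelin, rose from 56.1 ± 16.9 to 99.3 ± 13.8 and was not called as deposited, and the other, at 68.7 ± 16.4 and 55.2 ± 25.3, was not called. Of 7 anther and pollen probe sets, that of TDR, a tapetum regulator, fell from 54.7 ± 23.9 to 20.2 ± 15.3, a call lost without any of 8 arrays. Of 9 root probe sets, those with values given here are OsNRT2.3, a nitrate transporter, at 25.4 ± 11.1 and 40.5 ± 13.4, and LSI1, a silicon transporter, at 54.1 ± 9.80 in Nipponbare, and neither was called by limma (adjusted p = 0.293 and 0.995).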
